A study of Danio rerio with 2 samples.

Results

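Accessible sites on unplaced scaffolds of the zebrafish genome were examined in embryos at 4 hours post fertilization (hpf). These sites are the peaks of a single ATAC-seq list whose sequence name is not a chromosome number. There were 2512 such peaks out of 84715 in the list, or 2.97%, and they lay on 757 scaffolds. The other 82203 peaks lay on chromosomes 1 to 25 of the Zv10 assembly. Every scaffold name in the set begins with chrUn and a KN number, so neither the mitochondrial genome nor a chromosome-assigned fragment was among them. Scaffolds are named here by that KN number.

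Open chromatin was measured by ATAC-seq, in which the Tn5 transposase inserts sequencing adapters where DNA is not wrapped tightly in nucleosomes. At 4 hpf the zebrafish embryo has just begun to transcribe its own genome, and short ATAC-seq fragments at this stage mark promoters, enhancers and other places that proteins keep free of nucleosomes. Unplaced scaffolds are assembled stretches of DNA that could not be assigned to a chromosome. They often hold repeated sequence, such as satellite arrays, ribosomal RNA genes or recent duplications, whose copies are hard to order. Sequence that exists in many copies in the nucleus but in few copies in an assembly receives the reads of all its copies. The number of copies of any scaffold was not measured here.

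The samples were untreated wild-type embryos of the Tubingen strain at 4 hpf, with about 300 whole embryos in a tube, and no other genotype, treatment or stage was part of the ATAC-seq set. The 2 biological replicates belong to 1 group and were called together by the authors as 1 list. No peak therefore has a value per replicate, the depth of each replicate is unknown, and no spread between replicates or test across samples can be given. Whole embryos were used, so fewer cells with an open site and a less open site in each cell cannot be told apart. All comparisons below are descriptions of places in that list. Peaks are ranked and summed here by the score that the authors gave them, whose unit is not stated. The lowest score was 20, and the peak caller's cutoff was 2. Whether the score measures an amount of signal or a scaled significance is not known. Shares of summed score and ratios of scores below are therefore not shares or ratios of open chromatin.

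Peaks were spread thinly over many scaffolds. The median was 2 peaks per scaffold and the highest 36. A single peak was found on 258 scaffolds (34.1%), and 2 peaks on 180. There were 3 or 4 peaks on 172 scaffolds, 5 to 9 on 109, and at least 10 on 38. Those 38 scaffolds, 5.02% of all, carried 637 peaks, or 25.4% of the scaffold peaks. KN149690 had the most peaks, with 36 over a span of 312 kb. It was followed by KN149686 with 30 peaks over 257 kb and KN149696 with 29 over 368 kb. KN149684, KN149688 and KN150474 had 26 each.

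No scaffold lengths were used, so the span of a scaffold is taken from its first base to the end of its last peak. Spans ran from 0.59 kb to 368 kb, with a median of 16.4 kb and the middle 50% between 7.87 and 34.7 kb. Longer spans held more peaks, with a Spearman's rho of 0.815 across the 757 scaffolds. This relation is in part built in, because each added peak can only lengthen the span. The median score of a scaffold did not rise with its span (rho = -0.05 across the same scaffolds). Scaffold numbers in the list ran from KN149679 to KN150713, a range of 1035 numbers, of which 278 carried no peak. Whether each of those numbers is a scaffold of the assembly was not looked up. The 18 scaffolds numbered up to KN149696 were long, with a median span of 146 kb against 16.0 kb for the others, and they carried 328 peaks, 13.1% of the set.

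**Figure D1:**
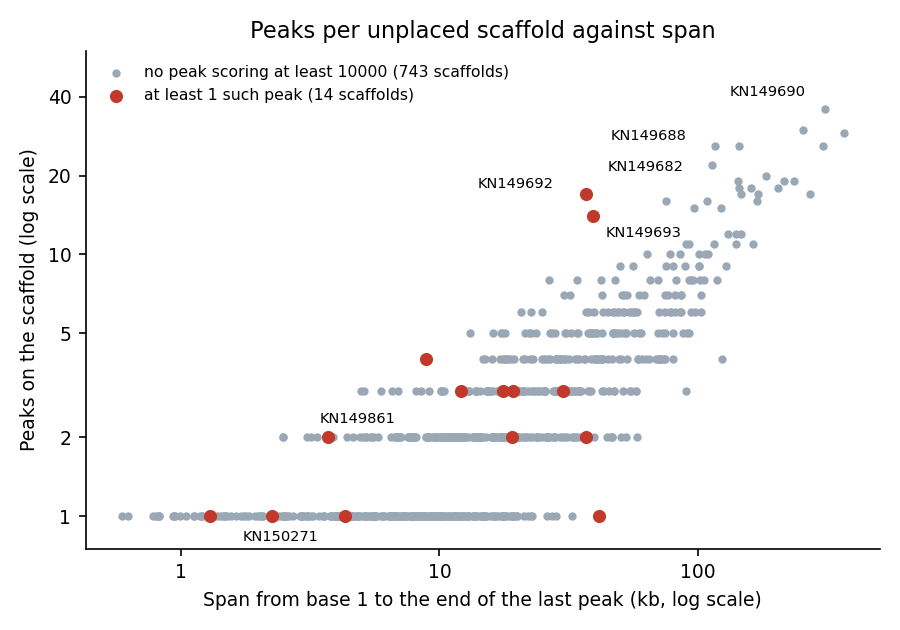
Number of peaks on each of the 757 unplaced scaffolds (vertical axis, log scale) against its span from the first base to the end of its last peak (horizontal axis, kb, log scale). Each point is 1 scaffold, and the 14 red points carry at least 1 peak scoring at least 10000, all of them with spans under 50 kb. KN149692 and KN149693 stand above the other scaffolds of their span with 17 and 14 peaks.

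Peaks covered 10.8% of the summed scaffold span of 22.2 Mb, against 6.27% of the 1340 Mb of chromosomes up to their last peaks and 8.83% of chromosome 4 alone. In peaks per Mb the values were 113 on scaffolds and 61.3 on chromosomes. Only scaffolds with a peak are in the list, and each span stops at a peak, which raises both values. Leaving out the last peak of each scaffold and ending the span where that peak begins gave 7.95% and 81.4 peaks per Mb. Chromosomes were also split into windows of 30 kb, near the mean scaffold span of 29.4 kb, and the windows with a peak were treated in the same way. They gave 8.36% and 83.3 peaks per Mb, slightly more than the scaffolds. Pooled in this way, scaffolds thus had no higher density of accessible sites than chromosome windows with a peak. The match is not exact, since windows have a fixed length and scaffold spans differ. Scaffolds with spans over 100 kb gave 10.0% and 92.0 peaks per Mb, more than the windows. Every class of shorter spans gave less cover than the windows. In peaks per Mb, spans of 20 to 50 kb gave 84.5, slightly more than the windows.

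Cover differed widely between scaffolds, from 1.84% to 99.8%, with a median of 11.5%. More than 50% was covered on 44 scaffolds, but 31 of these held 1 peak, and the median span of the 44 was 1.66 kb. Among the 512 scaffolds with spans of at least 10 kb, 5 were covered over more than 50%, or 0.977%, against 1.64% of the chromosome windows of that span. KN149693, KN149692 and KN150031 were among the 5, with 71.4%, 54.7% and 78.5%. Cover without the last peak was 6.15% on scaffolds with spans of up to 5 kb, 5.58% on those of 5 to 10 kb and 7.10% on those of 10 to 20 kb. Longer spans gave 8.00% up to 50 kb, 6.58% up to 100 kb and 10.0% beyond. Cover thus had no steady direction with span, although it was highest in the longest class. Density without the last peak was 61.0 peaks per Mb in the shortest class, 84.5 at 20 to 50 kb, 72.7 at 50 to 100 kb and 92.0 in the longest.

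Adjacent peaks on the same scaffold were separated by a median gap of 4.41 kb over 1755 gaps, against 5.95 kb on chromosomes and 2.94 kb on chromosome 4. Gaps under 1 kb made up 20.9% on scaffolds, 17.3% on chromosomes and 31.1% on chromosome 4. The longest gap was 93.8 kb on scaffolds and 712 kb on chromosomes, and a scaffold cannot hold a gap longer than itself. The part of short spans in the lower median gap was not tested.

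The widths of scaffold peaks resembled those on chromosomes. Their median was 730 bp against 740 bp, with quartiles of 590 and 1030 bp against 590 and 1050 bp. The narrowest peaks were 500 bp in both, as on chromosome 4 and at chromosome ends, so this value is not read as a likeness. Wide peaks were less frequent on scaffolds, where 12 of 2512 (0.478%) were over 5 kb against 855 (1.04%) on chromosomes and 141 (3.01%) on chromosome 4. A peak cannot be wider than its scaffold, and 115 scaffolds had spans of up to 5 kb. The part of short spans in this share was not tested. The widest scaffold peak, 12.2 kb, lay on KN150342 from 17961 to 30190 and scored 46605. The next, 8.51 kb on KN149691 from 69181 to 77690, scored 426. The third, 7.10 kb on KN149696 from 336331 to 343430, scored 3669. Of the 12 peaks over 5 kb, 8 scored under 1000, so most of the broad peaks on scaffolds were not high ones. Across peaks, width and score had a rho of 0.337 on scaffolds (n = 2512) and 0.382 on chromosomes, where peaks share 1 list and 1 calling step.

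Typical scores were also similar to those of chromosomes as a whole, while the shares at 5000 and at 20000 or more were higher on scaffolds than on chromosomes as a whole. The median score was 123 on scaffolds, 131 on chromosomes and 231 on chromosome 4, and the middle 50% lay between 76 and 266 on scaffolds and between 78 and 289 on chromosomes. The share of peaks scoring at least 500 was 13.1% on scaffolds and 14.9% on chromosomes. At 1000 or more the shares were 6.61% and 5.65%, where 5.68% of the whole list scored that high. At 5000 or more they were 2.15% and 0.364%, with 0.417% in the whole list. At 20000 or more they were 0.637% and 0.142%, with 0.157% in the whole list. Without KN149692 and KN149693, described below, the scaffold share was 5.44% at 1000 or more, which is under that of chromosomes, and 1.25% at 5000 or more. This pair was left out after its high scores were seen, and no chromosome place was left out. The order at 1000 or more therefore depends on that choice. The 99th percentile was 13534 over all scaffold peaks, 5899 without KN149692 and KN149693, and 2447 on chromosomes. With all scaffolds included, the curves crossed between scores of 500 and 1000. Scaffold peaks that were alone on their scaffold had a median score of 132 (n = 258), against 121 for those with others (n = 2254), and their shares at 1000 or more were 6.20% and 6.65%.

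**Figure D2:**
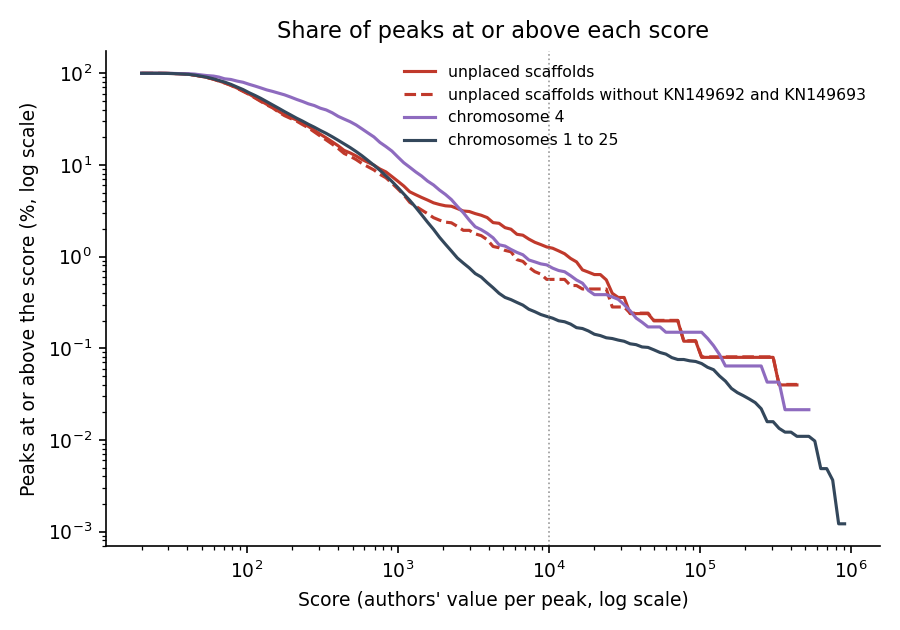
Share of peaks at or above each score (vertical axis, percent, log scale) against the score (horizontal axis, log scale) for unplaced scaffolds, for scaffolds without KN149692 and KN149693, for chromosome 4 and for chromosomes 1 to 25; the dotted line marks a score of 10000. At that line the shares are 1.27%, 0.564%, 0.769% and 0.218%.

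Scaffolds differed from each other far more than chromosomes did. Among the 147 scaffolds with at least 5 peaks, the median score ran from 47 to 11875, with the middle 50% between 90.5 and 184. The medians of the 25 chromosomes ran from 105 to 231, and the second highest was 153. A median above that of chromosome 4 was found on 24 of the 147 scaffolds, and 56 lay below the lowest chromosome. Chromosome medians rest on far more peaks than scaffold medians, and the part of this in the wider range was not tested. At the low end, every peak scored under 200 on 369 of the 757 scaffolds (48.7%). At the high end, every peak scored at least 1000 on 27 scaffolds. Of all scaffold peaks, 32.2% scored at least 200 and 6.61% at least 1000, against 34.2% and 5.65% on chromosomes. Since 258 scaffolds held 1 peak and 180 held 2, the counts of scaffolds at either end are not read as a difference between scaffolds.

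A score of at least 10000 was found for 32 scaffold peaks, 1.27% of them, where 0.249% of the whole list scored that high. The peaks nearest this limit were 10381 on KN149693 and 10776 on KN149692 just above it, and 9448 and 9369, both on KN150031, just below it. These 32 peaks lay on 14 scaffolds, 1.85% of the 757. KN149692 held 11 of them and KN149693 held 7, together 56.3%. KN150160 held 3, and each of the other 11 scaffolds held 1. Without KN149692 and KN149693 the share was 14 of 2481 peaks, or 0.564%, which is below the 0.769% of chromosome 4 and above the 0.184% of the other 24 chromosomes. Nothing was left out of chromosome 4, so the order against it depends on leaving out this pair. With the pair, the 1.27% of scaffolds was above the share of chromosome 4. More than 50% of the high scores on scaffolds thus came from 2 sequences. On chromosomes, 179 peaks scored at least 10000, and all 25 chromosomes held at least 1, with a median of 6 and a highest number of 36 on chromosome 4. In 30 kb chromosome windows with a peak, 154 of 31200 (0.494%) held such a peak and the highest number in a window was 3. Of the 38 scaffolds with at least 10 peaks, 36 had none.

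High scores on scaffolds came from narrower peaks than on chromosomes. Their median width was 1.5 kb, from 0.56 to 12.2 kb, against 4.99 kb and up to 97.0 kb on chromosomes. Over 5 kb wide was 1 of the 32, against 89 of 179 on chromosomes, and under 1 kb were 8 of the 32, against 16 of the 179. Of the 14 scaffolds with such a score, 4 had spans of up to 5 kb. The part of short spans in these widths was not tested. Of the 32 peaks, 18 lay on KN149692 and KN149693, so the widths rest largely on 2 scaffolds. No median width without this pair was computed. The highest score on a peak under 1 kb, 74932, lay on KN150127 from 18631 to 19280. Its neighbours on that scaffold scored 7104 and 1330.

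Summed scores were concentrated on few scaffolds. Scaffold peaks held 5.37% of the summed score of the list, with 2.97% of its peaks and 2.78% of its peak length. The 10 scaffolds with the largest summed score held 68.3% of the scaffold total, and the 20 largest held 76.9%. The top 1% of scaffolds, 8 in number, held 65.6%, and the top 1% of 30 kb chromosome windows with a peak held 49.7% of the chromosome total. KN149861 held 19.9% and KN150271 held 13.7%, almost all of it through 1 peak each. KN149692 followed with 10.1% and KN149693 with 6.10%, and these 4 together held 49.8%. KN150160 held 5.25%, KN150031 held 4.89% and KN150127 held 3.47%. Without peaks scoring at least 10000, the 10 largest scaffolds held 27.1%.

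**Figure D3:**
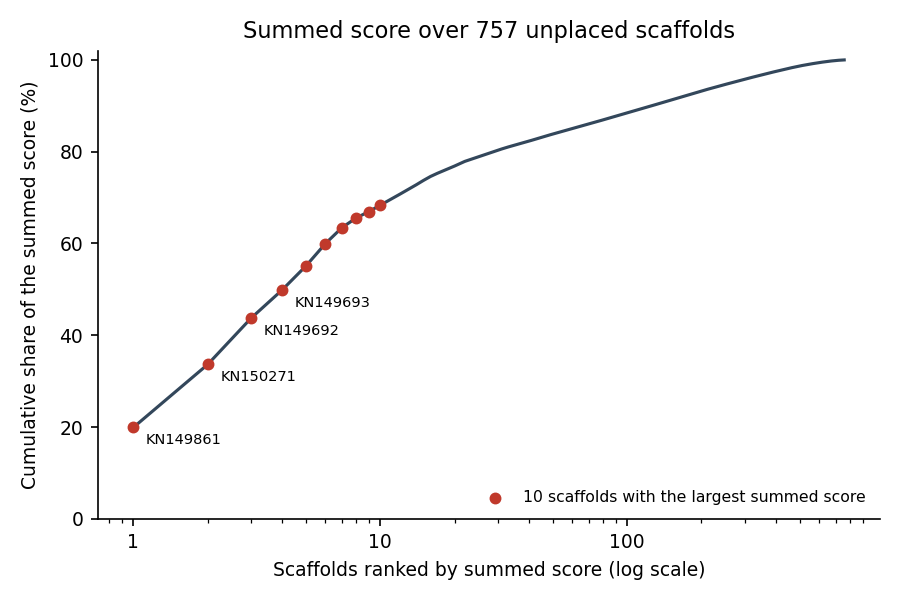
Cumulative share of the summed score of all scaffold peaks (vertical axis, percent) with scaffolds ranked by their summed score (horizontal axis, log scale). Red points are the 10 scaffolds with the largest sums, which reach 68.3%; the first 4 reach 49.8%.

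The highest-scoring scaffold peaks were a pair on very short spans. The first, on KN149861 from 1 to 2210, scored 476891, and the other peak of that scaffold, 970 bp further on and 0.52 kb wide, scored 1567. The second, on KN150271 from 31 to 2240, scored 329671 and was alone, covering 98.7% of a span of 2.24 kb. Both peaks were 2210 bp wide, a width found for 3 scaffold peaks, the pair included, and 56 chromosome peaks. Their summits lay at different places, at 2.94% of the width on KN149861 and 71.3% on KN150271. Whether the sequences are related was not tested, since no Zv10 sequence was used. On chromosomes, 9 peaks scored above the first and 11 above the second. The third-ranking scaffold peak, on KN150031 from 10891 to 12120, scored 98739, a drop of 3.34-fold from the second.

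KN149692 and KN149693 carried many peaks, of which 11 of 17 and 7 of 14 scored at least 10000. KN149692 had its 17 peaks in 36.9 kb, or 461 per Mb. Their scores ran from 2738 to 31653 with a median of 11875, and gaps between them ran from 260 bp to 3.02 kb. The highest peaks were those from 5421 to 6180 and from 10151 to 11590, with scores of 31653 and 31589. KN149693 had 14 peaks in 39.4 kb, or 355 per Mb, with scores from 3286 to 28460 and a median of 9441. Its highest peak ran from 33041 to 36980, and its widest, from 7241 to 13690, scored 8501. The lowest score among the 31 peaks of the pair was 2738. That level, taken from the pair itself, was reached by 0.831% of chromosome peaks and by 48 of the 2481 other scaffold peaks. On chromosome 4, 3.01% of peaks scored at least 2712. Neither scaffold held a peak near the median score of the set. Peaks on chromosomes could be as dense, with up to 20 in a 30 kb window, but no window held more than 3 of at least 10000. The windows are shorter than the 2 spans and lie on a fixed grid that can split a group of peaks. Peaks of at least 10000 were also wider on chromosomes (median 4.99 kb against 1.5 kb), so their counts are not a like measure. Peaks on the pair were irregular in width and spacing, with widths from 0.59 to 6.45 kb and gaps up to 4.74 kb.

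Evenly spaced peaks were found on KN149682 and KN149688, which had among the most peaks of all scaffolds. An even run was defined as at least 6 successive peaks whose start-to-start distances differed by at most 1.2-fold and stayed within 10 kb. The list as a whole had 0.14% of its peaks in such runs, against 22 of 2512 (0.876%) on scaffolds and 97 of 82203 (0.118%) on chromosomes. All 22 scaffold peaks came from 2 runs on 2 scaffolds, so the share describes those scaffolds and not scaffolds in general. The run on KN149682, from 8171 to 42750, had 16 peaks, and it was the longest of the list. The longest on a chromosome had 8, on chromosome 4 from 62531261 to 62540450.

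On KN149682 the distance from the start of a peak to the next was 2237 ± 47.6 bp (SD over the steps of the run), from 2130 to 2290 bp. Of the 16 peaks, 15 were between 0.9 and 1.2 kb wide and the other was 1720 bp. Scores were close to each other, from 635 to 1149 with a median of 858, a ratio of 1.81 between highest and lowest. Over all peaks of each scaffold with at least 5 peaks, that ratio had a median of 8.29, which is not a like measure for a run. Among even runs, scores ran from 1003 to 1182 on KN149688 and from 152 to 400 in the longest chromosome run. In runs of 6 peaks they ran from 112 to 183 on chromosome 16 and from 150 to 251 on chromosome 14. Other chromosome runs were wider, such as 120 to 1070 over 7 peaks on chromosome 22. Close scores were thus not particular to KN149682. Peaks covered 50.1% of the run. The 6 other peaks of the scaffold scored from 292 to 4194. The 3 highest, with scores of 3238, 3042 and 4194, lay beyond the end of the run, from 70691 onward.

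On KN149688 the peaks lay closer together. A packed run was defined as at least 5 successive peaks with gaps of at most 400 bp. The whole list had 0.365% of its peaks in such runs, scaffolds 25 of 2512 (0.995%) and chromosomes 284 of 82203 (0.345%), with 20 of the 25 on KN149688. This run, from 56881 to 98950, had 20 peaks and was the longest of the list, ahead of 15 peaks on chromosome 14. Peaks covered 85.9% of it, with gaps of 280 to 360 bp. No gap in the list was under 260 bp, so gaps in every packed run lie between 260 and 400 bp by definition. The distance between the middles of adjacent gaps fell into 3 classes, with 10 distances from 1130 to 1485 bp, 5 from 2575 to 2620 bp and 3 from 3910 to 3925 bp. In units of 1305 bp, the median of the shortest class, 16 of the 18 distances lay within 0.05 of a whole number. For the shortest class this is in part built in, because the unit was taken from it. The 5 and the 3 distances of the longer classes, which did not set the unit, all lay within 0.05. A peak with its share of the gaps on either side thus took up close to 1, 2 or 3 units. Scores were even, with 18 of the 20 under 1300, while peaks of 2642 and 2334 lay near its start and at its end. The 6 peaks of the even run on this scaffold, from 67251 to 81320, lie within the packed run, with steps of 2600 to 2620 bp. The sequence of both scaffolds was not examined, so whether the peaks lie on repeated units was not tested.

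**Figure D4:**
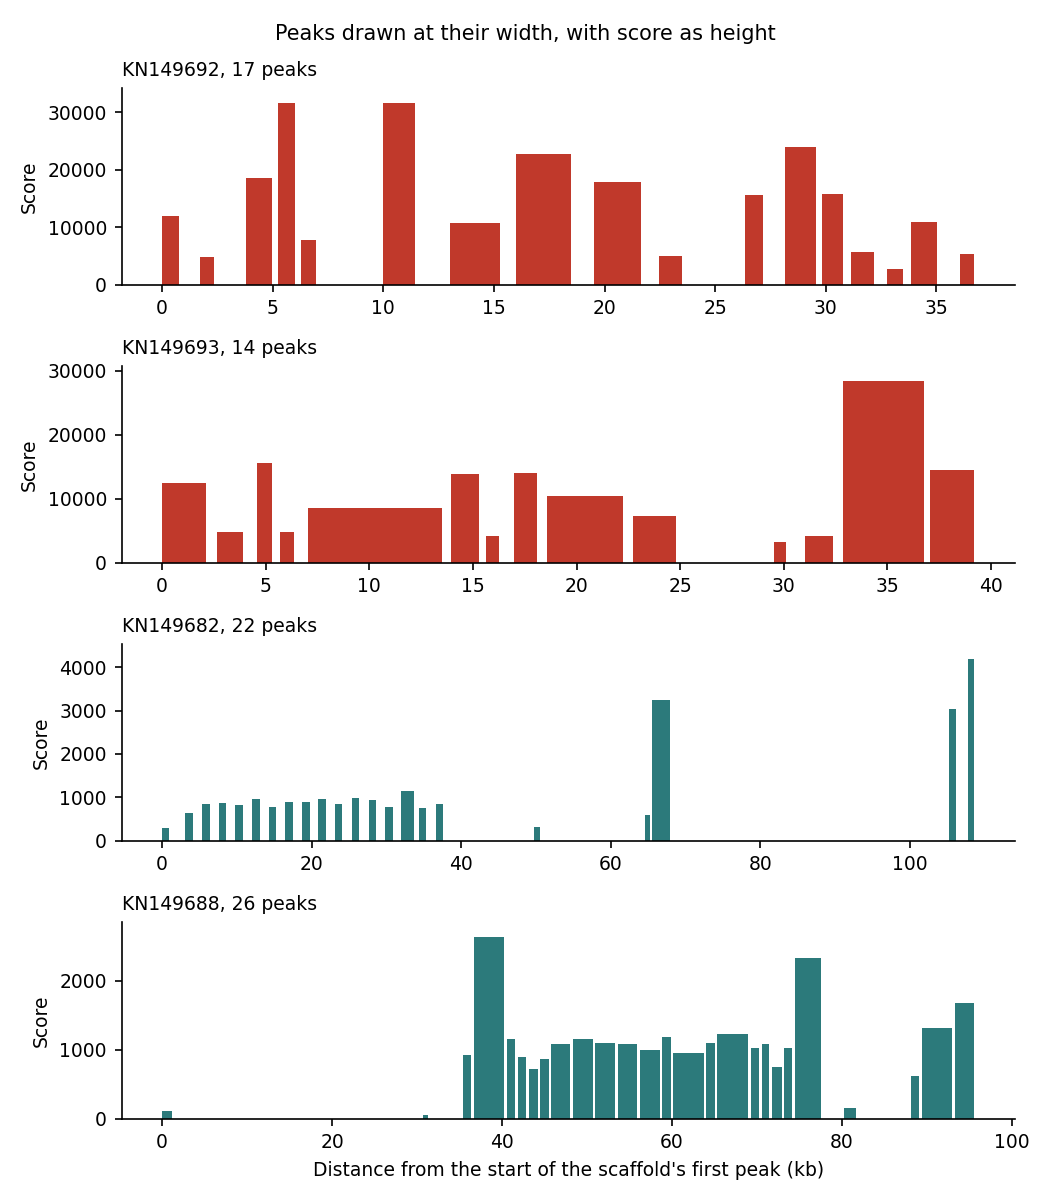
Peaks of 4 scaffolds, drawn at their position and width (horizontal axis, kb from the start of the scaffold's first peak) with the score as height (vertical axis, linear from 0, a different scale in each panel). KN149692 and KN149693 have irregular peaks scoring 2738 to 31653, whereas KN149682 shows a run of 16 peaks about 2237 bp apart. KN149688 shows a packed run of 20 peaks with gaps of 280 to 360 bp, where the definition allows at most 400 bp.

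A peak at the first bases of a scaffold may be cut short by the end of the assembled sequence. At base 1 there was 1 such peak, the highest-scoring one on KN149861, and 4 more began at base 11. These 4 scored 24051 on KN150014, 1247 on KN150449, 984 on KN149852 and 409 on KN149698. Within the first 10 bases the count was thus 1 of 2512 scaffold peaks (0.0398%) and 1 of 82203 chromosome peaks, where 0.00236% of the whole list began there. Within the first 100 bases it was 43 peaks, on 5.68% of scaffolds, and within 500 bases it was 95 peaks, on 12.5% of scaffolds. Chromosomes began with a peak within 500 bases in 7 of 25 cases, and 0.12% of the whole list began that close to the first base. The first peak of a scaffold began at a median of 5.22 kb from its first base, and at most at 67.2 kb.

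Peaks near the first base scored higher than those further in. The 95 peaks that began within 500 bases had a median score of 219 against 121 for the other 2417, and a median width of 900 against 730 bp. A score of at least 1000 was found for 20 of the 95 (21.1%) and for 146 of the 2417 (6.04%). Further in, this share was 9.09% up to 1 kb from the first base, 8.24% from there to 2 kb, 4.57% to 5 kb and 3.70% to 10 kb. It was 7.27% from 10 to 50 kb, where KN149692 and KN149693 had most of their peaks, and 5.02% beyond. A score of at least 10000 was found for 5 of the 95 and 27 of the 2417. These 5 were the first peaks of KN149861, KN150271, KN150014, KN149692 and KN149693. The part of scaffold length in the difference was not tested. Chromosome peaks went in the same direction, on few peaks. The 7 that began within 500 bases had a median score of 176 against 131 for the rest. Of these 7, 2 scored at least 1000 (28.6%), against 5.65% of the rest. The other end of each scaffold could not be examined in this way, because its last base was not known from the list.

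**Figure D5:**
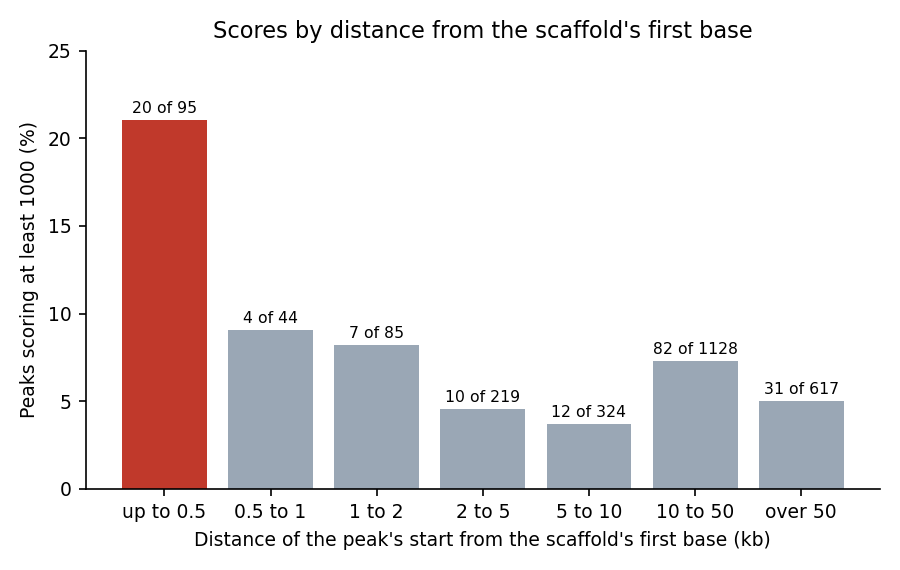
Share of scaffold peaks scoring at least 1000 (vertical axis, percent, from 0) by the distance of the peak's start from the scaffold's first base (horizontal axis, kb), with the number of such peaks and of all peaks above each bar. The share is 21.1% in the first 0.5 kb and between 3.70% and 9.09% in the bands further in.

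The position of summits within peaks differed little. The median summit lay at 48.4% of the peak's width on scaffolds and 48.8% on chromosomes. The outer 10% of the width on either side held 27.0% of scaffold summits and 24.0% of chromosome summits. Peaks that start in the outer 0.5 Mb of chromosome ends had a median score of 146 and a median width of 870 bp (n = 3706). Of these, 11 scored at least 10000, or 0.297%, below the 0.564% of scaffolds without KN149692 and KN149693. Leaving out this pair lowers the scaffold share, and no chromosome end was left out in turn. At 20000 or more the shares were 0.243% at chromosome ends and 0.443% on scaffolds without the pair (9 and 11 peaks). At 50000 or more the order was reversed, with 0.243% and 0.202%, but on only 9 and 5 peaks. The summed score was also more concentrated at chromosome ends, where peaks of at least 10000 held 75.5% of it. They held 63.5% on scaffolds without KN149692 and KN149693, and 66.6% on all scaffolds. The top 1% of peaks held 77.8%, 67.6% and 63.7%, in the same order.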

How the data were processed

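Per the labels, ATAC-seq libraries came from 2 biological replicates of untreated wild-type embryos at 4 hpf, with 2 and 3 sequencing runs. Reads were 150 bp long and paired. The authors used Novoalign, of which the submitters' processing notes name version 3.8, with Zv10 as the genome, and a read that matched several places was put at 1 of them at random. They used SAMtools to join runs. Fragments of 30 to 120 bp entered peak calling in a multi-replica MACS wrapper (cutoff 2), after the deeper replicate was scaled down. Peak names hold nodedup and noChrM, taken to mean that duplicates stayed in and mitochondrial reads did not. The deposited list has a score per peak. Every entry in its enrichment, p and q columns is 0, so these were not used. Peak boundaries lie in steps of 10 bp. Depth is unknown.

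Starts are counted from 1. Peaks were split by sequence name, and peaks per scaffold, cover, gaps, widths, scores, edges and runs were computed with Python 3.11.15, pandas 2.3.3, numpy 2.4.6 and scipy 1.17.1, and drawn with matplotlib 3.10.9. The run finders were tested on simulated data with planted runs, where all other peaks lay over 10 kb apart. How often runs arise by chance at the density of these data was not tested. No hypothesis test was made, since the list has no value per replicate. The places named are the 10 scaffolds with the largest summed score, the 10 with the most peaks, the 10 highest and 10 widest peaks, and the peaks nearest a score of 10000. The runs, the 30 kb windows, the bands of distance from the first base, the peaks at base 11, the scaffolds numbered up to KN149696 and other peaks of named scaffolds were chosen after their values were seen. The members and limits were chosen with earlier results of these data known. Genes, motifs and sequences were not used here, since the gene tables at hand belong to another assembly. Alternatives were a higher minimum score, other spans, edges and score limits, and leaving out scaffolds or chromosome 4.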

Additional observations from a re-analysis of the deposited data

How the results depend on the processing

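No paired analysis was possible because the list merges the replicates of the single group, so neither could be left out. The full scaffold length was not used, since no Zv10 sequence was at hand. Leaving out KN149692 and KN149693 or the last peaks, and the run settings, were chosen after the data were seen. Intervals that judged each change count peaks or bases as independent. The share of span covered, 10.8%, was 10.78% with a minimum score of 40, 9.13% with a minimum of 100, 10.81% with only scaffolds of at least 5 peaks, 14.7% from the first peak to the last, 10.6% without KN149692 and KN149693 and 7.95% without the last peak of each scaffold. Its difference from chromosomes was 4.55 percentage points, and 4.70 without chromosome 4. With a minimum of 100 there were 1523 peaks, a median width of 810 bp and a median score of 218. The share at the first 10 bases was 0 with only scaffolds of at least 5 peaks, 1.71% for 100 bases and 3.78% for 500. The median was 6 peaks per scaffold among those with at least 5. The share of very high scores was 2.10% with a minimum of 100, 2.15% and 0.637% for limits of 5000 and 20000, and 0.564% without KN149692 and KN149693. The share of the 10 largest scaffolds was 68.4% and 70.3% with minimum scores of 40 and 100, 62.0% without KN149861, 65.1% without KN149692 and KN149693 and 27.1% without peaks scoring at least 10000. Without chromosome 4 the differences from chromosomes in median score and in the share of very high scores kept their sign, and that in median width went from -10 bp to 0. Even runs held 22 scaffold and 97 chromosome peaks, against 27 and 291 with a minimum of 5 peaks (1.07% and 0.354%), 28 and 171 with a ratio of 1.3, and 22 and 32 with a ratio stricter than 1.2. Packed runs held 25 and 284, against 31 and 519 with gaps of up to 500 bp. The longest scaffold runs had 16 and 20 peaks in each case. Depth is unknown, so scaffolds without a peak are not read as closed.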
